A study of Mus musculus with 170 samples.

Results

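The antiviral interferon-stimulated genes described here are 37 genes, chosen by name from 21450 gene symbols in the count table, and their rows were summed per symbol. They were chosen with earlier results of these data known. Counts of members set beside shares of all genes are therefore descriptions throughout, not tests of the set. The animals were female mice of the outbred CD-1 stock, and material was placed at the back of the throat and drawn into the lungs (oropharyngeal aspiration) before lung and heart RNA was measured. LPS, a bacterial cell wall component that triggers strong inflammation, served as positive control, at a dose that the sources used here do not give, and saline served as vehicle control. The 10 smokes were particles from red oak, peat, pine needles, pine or eucalyptus, each burned with flames or smoldering, given at 2 mg/mL in 50 µL of saline, so that saline itself was shared by smoke and control animals. Lungs were taken 4 h and 24 h later from 4 animals per time after LPS, 6 after each smoke and 6 after saline. Hearts were taken at 24 h from 6 animals each after red oak flaming, peat flaming, red oak smoldering, peat smoldering and saline, and came from animals whose lungs were also measured. Hearts after LPS were not analysed here, the sources used here give no age, and each library is 1 animal by its title.

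Interferons are secreted when sensors of foreign nucleic acid or of bacterial products fire. They bind receptors on the same and neighbouring cells, and kinases of the JAK family then activate signalling factors such as Stat2, which joins Irf9 in a complex that binds interferon-stimulated response elements in promoters. The genes switched on this way block viral entry, RNA translation and release, and several of them feed back on the pathway. In the lung, LPS acts through Tlr4, which can signal through Irf3 to interferon beta.

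The 37 genes fall into 7 roles. Sensors and kinases of double-stranded or unusual nucleic acid are Ifih1, Ddx58, Dhx58, Zbp1 and Eif2ak2. The oligoadenylate synthetase family, whose active enzymes make the signal that turns on RNase L, is Oas1a, Oas2, Oas3, Oasl1 and Oasl2. Ifit1, Ifit2 and Ifit3 bind foreign RNA or its translation machinery, and Mx1 and Mx2 are dynamin-like GTPases. Isg15 is a ubiquitin-like protein, Herc6 the ligase that attaches it in mice, and Usp18 the protease that removes it and dampens the interferon receptor. Irf1, Irf7, Irf9 and Stat2 are transcription factors of the pathway, and Parp9, Parp14 and Dtx3l belong to ADP-ribosylation and its partner ubiquitin ligase. The other 12 are Rsad2, Cmpk2, Isg20, Bst2, Ifitm3, Samd9l, Trim30a, Rtp4, Xaf1, Ifi44, Ifi35 and Lgals3bp. Near-identical relatives exist for some of them, such as Oas1a, Ifit3, Ifitm3 and Trim30a, and the probes' specificity among such relatives is not given in the sources used here.

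Promoters from RefSeq (build GRCm38.p6) were matched by symbol for 28 of the 37 genes, from 250 bases before to 50 bases after the start; Dhx58, Mx1, Mx2, Oas2, Parp14, Parp9, Rtp4, Usp18 and Zbp1 had no entry in the table. The letters GAAANNGAA, the repeated core of an interferon-stimulated response element, were searched on both strands, and overlapping matches were kept. They occurred in 15 of the 28 members (53.6%) and in 2318 of 27025 genes with a promoter (8.58%). When the second repeat had to go on as GAAA, 13 members (46.4%) and 944 genes (3.49%) matched. The 150 bases before the start are shown for 4 members that hold the core and 2 that do not, since these 2 were the members least changed by LPS at 4 h, and capitals mark the core on either strand.
Bst2: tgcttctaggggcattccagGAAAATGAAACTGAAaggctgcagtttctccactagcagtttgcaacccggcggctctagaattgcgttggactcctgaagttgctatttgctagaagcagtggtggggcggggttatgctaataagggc
Trim30a: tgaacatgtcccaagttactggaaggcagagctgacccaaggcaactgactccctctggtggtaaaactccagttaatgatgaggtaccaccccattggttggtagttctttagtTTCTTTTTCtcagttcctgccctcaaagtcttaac
Oas1a: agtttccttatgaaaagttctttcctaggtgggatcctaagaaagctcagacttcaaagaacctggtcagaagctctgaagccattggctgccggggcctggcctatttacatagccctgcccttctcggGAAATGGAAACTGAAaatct
Ifit3: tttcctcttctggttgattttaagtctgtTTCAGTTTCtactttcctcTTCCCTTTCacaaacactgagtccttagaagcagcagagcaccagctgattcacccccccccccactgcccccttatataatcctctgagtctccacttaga
Ifi35: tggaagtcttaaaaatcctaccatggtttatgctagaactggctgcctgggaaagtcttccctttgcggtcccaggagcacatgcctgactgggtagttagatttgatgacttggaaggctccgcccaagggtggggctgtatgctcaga
Lgals3bp: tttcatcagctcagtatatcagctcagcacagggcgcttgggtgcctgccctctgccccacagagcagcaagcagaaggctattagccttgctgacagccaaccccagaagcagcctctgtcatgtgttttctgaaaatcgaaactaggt
Bst2 lies at chr8:71537473-71537622 and Trim30a at chr7:104465194-104465343, both on the minus strand. Oas1a, also on the minus strand, lies at chr5:120907526-120907675, and Ifit3, on the plus strand, at chr19:34583379-34583528. Ifi35 lies on the plus strand at chr11:101448262-101448411 and Lgals3bp on the minus strand at chr11:118401960-118402109. Bst2 and Oas1a each hold 2 cores that overlap in their repeats, Ifit3 holds 2 separate cores on the opposite strand within the bases shown and Trim30a 1. In Isg15 cores began 78, 72 and 66 bases before the start, the spacing of a head-to-tail repeat. No match in the Ifi35 and Lgals3bp windows says only that these letters are not there. Whether the core goes with the size of the LPS change was not tested. Ifitm3, which did not pass the LPS test at either time below, held cores beginning at positions 2 and 19 after the start. Lgals3bp, without the core, had log2 changes of 2.89 and 3.15 in its probe rows at 24 h after LPS. Ifitm3 and Lgals3bp are single examples, and no link in either direction is read from them.

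The 170 libraries held 4.43 to 8.05 M counts each (median 6.59 M, where M is 1e+06), and between 9886 and 15644 genes had a count. In 6 lung libraries, all at 24 h, fewer than 13000 genes were detected, the lowest being red oak flaming replicate 6. Cardiac muscle markers summed to between 32600 and 53500 CPM (counts scaled to 1e+06 per library, normalised within each tissue) in hearts. Surfactant cell markers summed to at most 44.6 CPM in hearts. The members were read by 64 probe rows, 16 genes by 1 row and 21 by several. Levels are CPM throughout, differences are log2 changes with their standard error, and a gene is called at an adjusted p under 0.05 in edgeR's quasi-likelihood test over all genes tested (14458 in lung, 11179 in heart). All 37 members were tested in lung and 31 in heart. Probe counts are not comparable between genes, so levels are compared only within a gene.

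At 4 h the lungs of LPS animals held far more RNA of nearly every member than saline lungs. Of the 37 members, 35 were called higher and 0 lower, against 5.48% of all genes called higher. The 37 log2 changes were all above 0, with a median of 2.83 against -0.04 over all genes, and every LPS lung was above every saline lung for 36 members (6.18% of all genes). Dhx58 was the exception, at 9.56, 10.8, 3.16 and 0.941 CPM in LPS lungs and 0 to 3.63 CPM in saline lungs, although it was called (log2 change 2.69, adjusted p = 0.023). That call was lost without saline animal 2, 3 or 4 or LPS animal 1 or 2, at adjusted p between 0.0506 and 0.122.

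Isg15, the ubiquitin-like modifier, was at 1090, 1390, 2480 and 1670 CPM in the 4 LPS lungs, against 16.4, 37.6, 22.5, 23.2, 89.8 and 57.5 CPM in the 6 saline lungs. The lowest LPS value lay far above the highest saline value, and the log2 change was 5.33 ± 0.71 (40.2-fold, adjusted p = 2.72e-09). Usp18, which takes Isg15 off its targets, was at 1600, 1270, 766 and 627 CPM in LPS lungs and between 59.9 and 171.7 CPM in saline lungs, with the first saline animal highest. Its log2 change was 3.54 ± 0.43 (adjusted p = 8.42e-11). Herc6, the ligase of the system, changed by 2.83 ± 0.46 (adjusted p = 1.17e-06).

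The RNA-binding and GTPase effectors had the highest median change of the 7 roles at 4 h, 4.62 on the log2 scale, and all 5 were called. Ifit1, which binds RNA lacking the host cap, was at 991, 1820, 1630 and 1560 CPM in LPS lungs, against 16.1, 32.7, 25.9, 26.5, 74.5 and 48.4 CPM in saline lungs. This was a log2 change of 5.33 ± 0.73 (adjusted p = 7.66e-09). Mx1, a GTPase that acts on viral nucleocapsids, was at 362, 452, 207 and 172 CPM in LPS lungs, against 9.18, 5.45, 6.24, 2.22, 13.2 and 3.89 CPM in saline lungs. No value of the groups overlapped, and the log2 change was 5.48 ± 0.55 (adjusted p = 2.83e-14). Ifit2 at 4.62 ± 0.47, Ifit3 at 4.57 ± 0.92 and Mx2 at 4.18 ± 0.53 were close to each other.

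Among the oligoadenylate synthetase genes all 5 were called at 4 h. Oasl2, an antiviral member of the family, was at 1440, 1340, 987 and 733 CPM in LPS lungs and 154.7, 74.2, 88.8, 76.9, 116.7 and 60.6 CPM in saline lungs. Its log2 change of 3.56 ± 0.30 had the smallest p of the 37 (adjusted p = 7.88e-18). Oasl1, known in mice to restrain Irf7 translation, showed the highest log2 change of all members, 5.78 ± 0.69 (adjusted p = 3.24e-11), with 66.6, 86.8, 89.1 and 89 CPM in LPS lungs and 0.477 to 4.28 CPM in saline lungs. Its 4 LPS values lay close together. Oas3 changed by 4.11 ± 0.78, Oas2 by 3.32 ± 0.61 and Oas1a by 2.71 ± 0.54.

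The sensors and kinases rose less, with a median log2 change of 2.49. Ddx58, the RIG-I sensor of viral RNA ends, was at 236, 318, 243 and 143 CPM in LPS lungs, against 33.8, 52.4, 45.3, 36.2, 58.6 and 51.3 CPM in saline lungs. The log2 change was 2.34 ± 0.44 (adjusted p = 2.83e-05), and the groups did not overlap. Zbp1, a sensor of Z-form nucleic acid linked to necroptosis, changed by 3.79 ± 0.53, Eif2ak2, the kinase that halts translation, by 2.49 ± 0.26, and Ifih1, the sensor of long RNA duplexes, by 2.00 ± 0.55.

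The pathway's own factors rose as well, all 4 of them. Irf7, the factor behind the broad interferon alpha response, was at 133.1, 166.3, 211 and 120.6 CPM in LPS lungs, against 9.18, 9.97, 11.5, 4.45, 17.5 and 8.4 CPM in saline lungs (log2 change 3.95 ± 0.43, adjusted p = 1.06e-12). Irf1, which also responds to interferon gamma, was at 819, 903, 647 and 489 CPM in LPS lungs and 114.9 to 216 CPM in saline lungs, of which the sixth animal was highest. That was a log2 change of 2.35 ± 0.41 (adjusted p = 5.51e-06). Stat2, which acts together with Irf9, was at 134.1, 182.2 and 160.7 CPM in the first 3 LPS lungs, lower than these in the fourth, and 26.2 to 32.4 CPM in saline lungs, with no overlap and a log2 change of 2.28 ± 0.29 (adjusted p = 6.02e-10). Its 6 saline values were within a narrow band. Irf9 changed by 1.81 ± 0.37 (adjusted p = 0.000117).

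All 3 ADP-ribosylation genes were called, led by Dtx3l, the ubiquitin ligase that pairs with Parp9, at 2.86 ± 0.25 (adjusted p = 1.97e-17). Of the other 12 effectors 10 were called. Rsad2, or viperin, which makes a chain-terminating nucleotide, was at 1490, 2210, 620 and 704 CPM in LPS lungs, against 40.9, 25.4, 32.3, 10.2, 69.6 and 33.1 CPM in saline lungs. The log2 change was 5.15 ± 0.60 (adjusted p = 1.24e-11), and Cmpk2, its neighbour gene that supplies nucleotides, changed by 4.19 ± 0.49. Lgals3bp, a secreted glycoprotein that binds galectins, had the smallest change of those called. It was at 105.4 to 142.2 CPM in LPS lungs and 33.5 to 63.4 CPM in saline lungs (log2 change 1.34 ± 0.25, adjusted p = 2.05e-05).

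Ifitm3, which stops membrane fusion of entering viruses, and Ifi35 were not called. Ifitm3 was at 643, 1100, 2080 and 1610 CPM in LPS lungs, against 66.5, 336, 286, 363, 574 and 606 CPM in saline lungs. The ranges did not overlap, but the first saline animal was far below the other 5, and the log2 change was 1.87 ± 0.69 (adjusted p = 0.0747). Fitted on the 4 h lungs alone, Ifitm3 was called (adjusted p = 0.00159), as it was without the 6 lungs of few detected genes (adjusted p = 0.00959). Ifi35 was at 8.53, 3.91, 5.98 and 3.58 CPM in LPS lungs and 0.765 to 3.28 CPM in saline lungs (log2 change 1.26 ± 0.54, adjusted p = 0.15), and it too was called on the 4 h lungs alone (adjusted p = 0.0281).

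**Figure D1:**
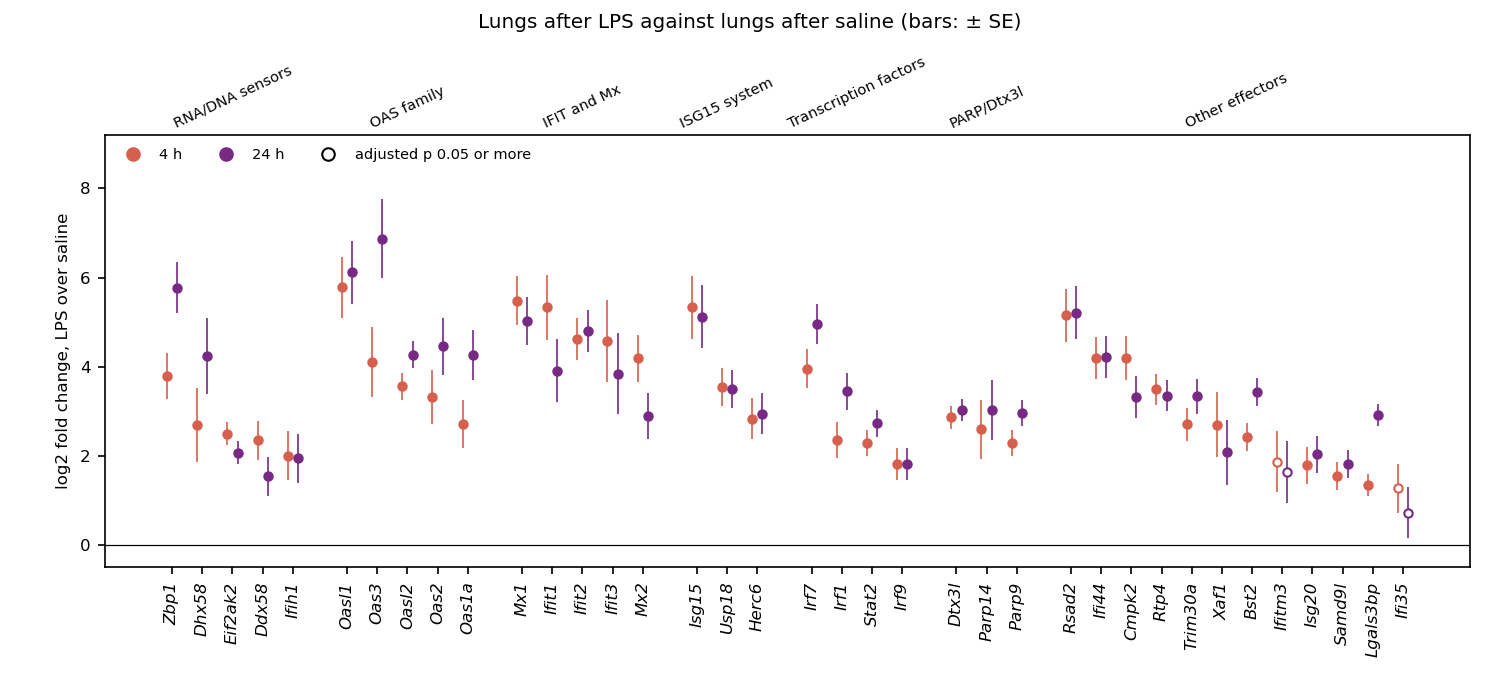
Log2 change in lungs after LPS against lungs after saline for each of the 37 genes, grouped by role on the horizontal axis, at 4 h and 24 h; points are the fitted changes, bars ± SE, and open points were not called. All 37 points lie above 0 at both times, and the open ones are Ifitm3 and Ifi35.

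At 24 h the LPS lungs still differed from saline lungs in the same direction for every member. Again 35 were called higher and 0 lower (7.58% of all genes were called higher), the median log2 change was 3.35 against -0.12 over all genes, and the uncalled members were again Ifitm3 and Ifi35. For 35 members every LPS lung was above every saline lung (7.38% of all genes). The 24 h lungs were spread over plates 1 and 2. With the plate 2 lungs alone, 3 LPS against 5 saline, 31 members were called, and those not called were Ddx58, Ifih1, Parp14, Xaf1, Ifitm3 and Ifi35. The call of Xaf1 (log2 change 2.08, adjusted p = 0.045) was lost under 5 other settings and on leaving out any 1 of 8 animals, at adjusted p between 0.0549 and 0.253. Ifitm3 was called without the lungs of few detected genes (1.64, adjusted p = 0.0242).

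The oligoadenylate synthetase family had the highest median at 24 h, 4.45. Oas3, whose product needs long RNA duplexes, was at 32.4, 97.1, 46.4 and 38.2 CPM in LPS lungs, against 1.18, 0, 0.164, 0.696, 0.299 and 0.301 CPM in saline lungs. With saline values at or near 0, its log2 change of 6.87 ± 0.89 (adjusted p = 3.99e-10) leans on small counts. Oasl1 was at 15.9, 117.6, 64 and 28.5 CPM in LPS lungs and 0.174 to 1.77 CPM in saline lungs, a log2 change of 6.11 ± 0.72 (adjusted p = 1.03e-11). Its LPS values, close together at 4 h, spread widely at 24 h. Oasl2 was at 1230, 2530, 2110 and 1440 CPM in LPS lungs and 71.3 to 142 CPM in saline lungs, a log2 change of 4.27 ± 0.31 (adjusted p = 1.64e-22).

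Zbp1 came next in size at 24 h. It was at 384, 553, 373 and 248 CPM in LPS lungs, against 8.54, 3.25, 12.8, 6.44, 4.18 and 7.22 CPM in saline lungs, a log2 change of 5.77 ± 0.57 (54.7-fold, adjusted p = 3.37e-15). The lowest LPS animal was far above the highest saline animal. Rsad2 followed at 395, 2020, 956 and 818 CPM in LPS lungs and 8.52 to 57.5 CPM in saline lungs (log2 change 5.21 ± 0.60, adjusted p = 4.4e-12).

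Isg15 was at 615, 1480, 1040 and 568 CPM in LPS lungs and 11 to 42.1 CPM in saline lungs at 24 h (log2 change 5.12 ± 0.71, adjusted p = 4.41e-09). Mx1 was at 67, 260, 176 and 95.2 CPM in LPS lungs and 2.25 to 6.92 CPM in saline lungs (log2 change 5.03 ± 0.54, adjusted p = 2.89e-13). In both genes the second LPS animal was highest and the groups were apart. Irf7 was at 139.2, 312, 284 and 141.3 CPM in LPS lungs and 1.74 to 10.3 CPM in saline lungs (log2 change 4.96 ± 0.45, adjusted p = 4.81e-17). Ifit2 was at 493, 2440, 1650 and 795 CPM in LPS lungs and 28.7 to 69.1 CPM in saline lungs (log2 change 4.80 ± 0.47, adjusted p = 2.18e-15). The second LPS animal was the highest of the 4 for these 2 genes too.

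The LPS effect itself was compared between times, as 24 h minus 4 h. Of the 37 members only Lgals3bp was called, with an effect greater at 24 h by 1.57 ± 0.36 on the log2 scale (95% interval 0.86 to 2.28, adjusted p = 0.0109), when 0.436% of all genes were called higher. At 24 h it was at 216, 325, 344 and 223 CPM in LPS lungs and 25.5 to 58.5 CPM in saline lungs, so its LPS values were all above those of 4 h. With another size factor method this call was lost (adjusted p = 0.0653). The next smallest p was that of Zbp1, with a difference of 1.99 ± 0.73 (adjusted p = 0.275), and Mx2 had the most negative one, -1.30 (adjusted p = 0.682). The other members did not pass the test either, which does not show that the 2 times were alike. For Oas1a, Bst2 and Irf1 every LPS lung at 24 h was above every LPS lung at 4 h, with log2 differences in effect of 1.55 ± 0.76 (95% interval 0.04 to 3.06, adjusted p = 0.581), 1.01 ± 0.44 (0.15 to 1.88, adjusted p = 0.456) and 1.09 ± 0.58 (-0.06 to 2.24, adjusted p = 0.645). Zbp1 was apart in this direction too. Ifit1 was apart in the other, at 991 CPM or more at 4 h and at most 471 CPM at 24 h. So were Ifih1 (229 or more, at most 205 CPM) and Ddx58 (142.7 or more, at most 117.3 CPM). These ranges are levels, not effects. For Ifih1 saline lungs were lower at 24 h too (mean 98.3 CPM at 4 h, 45.8 CPM at 24 h). In the test of each probe row alone, its log2 change was 1.98 at 4 h and 1.96 at 24 h. The rows of Ddx58 changed by 2.20 and 2.68 at 4 h and by 1.60 and 1.40 at 24 h. Those of Ifit1 changed by 5.10 to 5.70 at 4 h and by 3.68 to 4.03 at 24 h. All 4 h LPS lungs were on plate 1 and most 24 h ones on plate 2, so these ranges compare plates as well. No share over all genes is set beside them.

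Each probe row was also tested alone. Of the 64 rows of the members, 62 were higher in LPS than in saline lungs at 4 h (4.57% of all rows) and 59 at 24 h (6.49%), and the log2 changes of all 64 were above 0 at both times. The rows that missed at 4 h belonged to Ifi35 and Ifitm3, and at 24 h 1 row each of Ddx58, Ifi35, Ifitm3, Oasl1 and Parp9 missed.

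Neutrophil and recruited monocyte markers gave higher calls in LPS lungs at both times. Markers of T and NK cells and of plasmacytoid dendritic cells gave calls only at 24 h. Neutrophil markers summed to 581 to 2040 CPM in LPS lungs, against 126.4 to 305 CPM in saline lungs at 4 h, and to 1300 to 2030 CPM against 91.9 to 187.6 CPM at 24 h, with 9 of 10 called higher at both times. The defining neutrophil marker Ly6g was detected in all of these lungs, and Ngp was at 0 in part of the saline lungs. Recruited monocyte markers summed to 1270 to 4320 CPM in LPS lungs and 515 to 3160 CPM in saline lungs at 4 h, and to 1780 to 3110 CPM and 532 to 1460 CPM at 24 h, with 5 and 6 of 7 called higher. T and NK cell markers summed to 132.9 to 213 CPM in LPS lungs and 88.3 to 207 CPM in saline lungs at 4 h, with 0 of 10 called. At 24 h they summed to 523 to 1130 CPM and 92.4 to 242 CPM, with Gzmb, Nkg7 and Prf1 called. Of 6 plasmacytoid dendritic cell markers 0 were called at 4 h and Siglech at 24 h. The part of these cells in the members' rise was not tested, and in whole lung more cells of a type and more RNA per cell cannot be told apart.

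Other genes of the pathway gave fewer calls and none lower. Of 21 interferon genes listed, only Ifng and Ifna2 had counts enough to test, and only Ifng, the interferon of T and NK cells, was called. Ifng was at 1.37, 2.55, 5.48 and 3.58 CPM in LPS lungs and 0 to 1.24 CPM in saline lungs at 4 h (log2 change 3.27 ± 0.92, adjusted p = 0.0101). At 24 h it was at 12, 81.7, 31.5 and 31.3 CPM in LPS lungs and 0 to 0.983 CPM in saline lungs (log2 change 6.47 ± 0.96, adjusted p = 3.83e-08). Both times the groups were apart. Ifnb1, the interferon that Tlr4 signalling induces, had 10 counts over the 4 LPS lungs and 0 over the 6 saline lungs at 4 h, and 13 and 4 counts at 24 h, too few to test.

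Of 6 interferon receptor chains, 2 were higher after LPS at 4 h and 3 at 24 h, with Ifngr2 at log2 changes of 1.47 ± 0.37 and 1.07 ± 0.37. Of 13 signalling genes 6 and 7 were higher. Irf8, a factor of myeloid cells, was higher only at 24 h by its calls, and the difference between times was itself called (2.04 ± 0.39, adjusted p = 0.00125). Of 16 genes upstream of interferon 3 were higher at 4 h and 6 at 24 h, led by Cd14, which presents LPS to Tlr4, at 3.89 ± 0.60 and 4.35 ± 0.64.

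LPS lungs stood apart from smoke lungs as they did from saline lungs, with the same LPS animals in both comparisons. Against the mean of the 10 smokes 36 of 37 members were called higher at 4 h (7.15% of all genes) and 36 at 24 h (12.5%), with median log2 differences of 2.98 and 3.30. Ifi35 was not called at either time (adjusted p = 0.0974 and 0.433), and Ifitm3 was called at 24 h (1.34, adjusted p = 0.0366). The highest differences at 4 h were those of Oasl1 (6.14 ± 0.31), Mx1 (5.69), Ifit1 (5.50), Rsad2 (5.37) and Isg15 (5.32), followed by Ifit3 (5.12), Mx2 (4.78) and Ifit2 (4.76). At 24 h they were those of Oasl1 (5.98), Oas3 (5.72), Zbp1 (5.30), Rsad2 (4.72) and Ifit2 (4.67), then Mx1 (4.64), Isg15 (4.60) and Irf7 (4.60). For 33 members at 4 h every LPS lung was above all 66 other lungs of that time (2.1% of all genes), the exceptions being Dhx58, Parp14, Xaf1 and Ifi35. At 24 h this held for 30 members (3.24%), without Eif2ak2, Mx2, Parp14, Cmpk2, Ifitm3, Xaf1 and Ifi35.

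**Figure D2:**
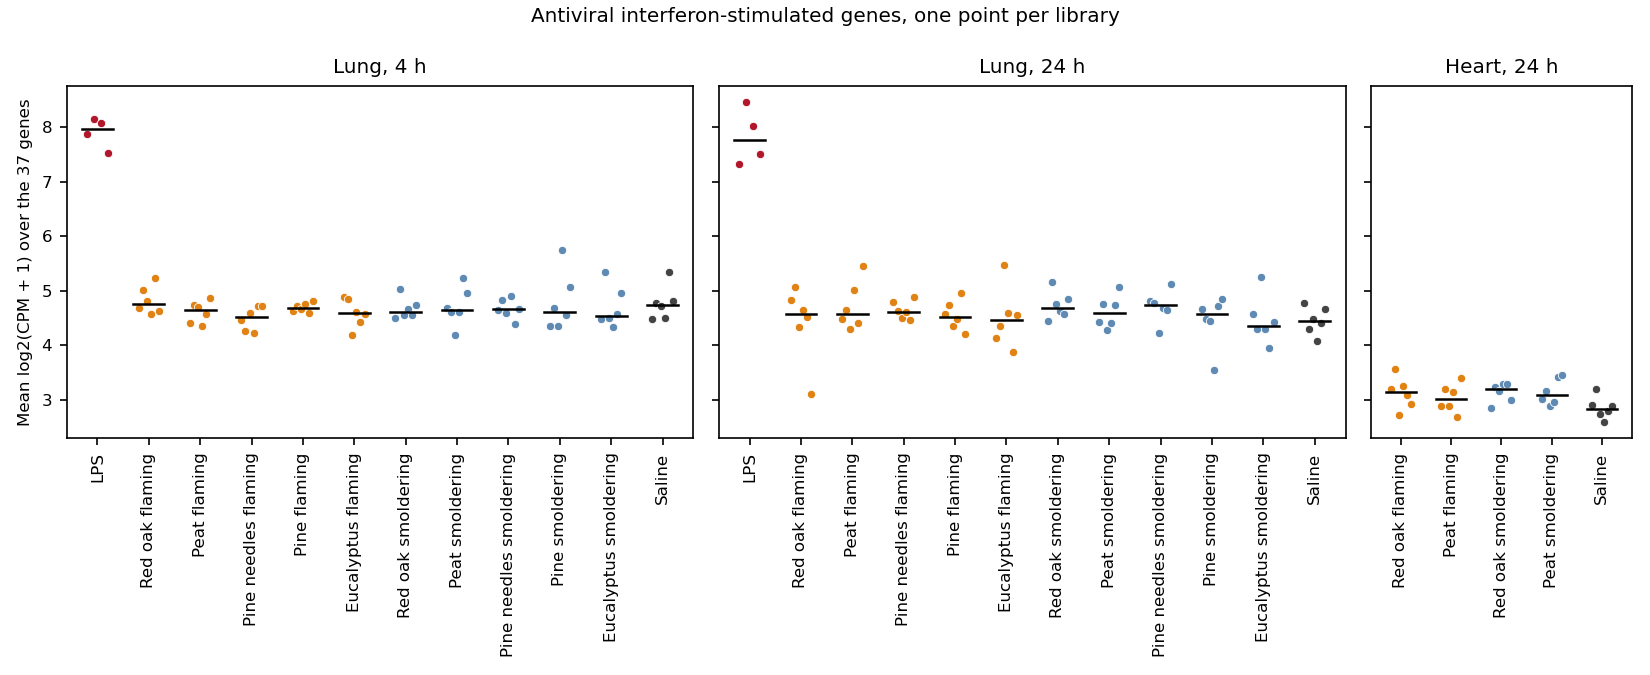
Mean of log2(CPM + 1) over the 37 genes in each library (points), by group, for lung at 4 h, lung at 24 h and heart, with the group median as a bar. LPS lungs lie between 7.53 and 8.15 at 4 h and between 7.34 and 8.46 at 24 h, above every smoke and saline lung.

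No single smoke gave a called change of any member in lung, at either time. At 4 h the shares of all genes called in either direction were 0.0138% for red oak flaming, 0.297% for peat flaming, 0.0277% for pine needles flaming, 0.00692% for pine flaming and 0.0899% for eucalyptus flaming. For the smoldering phases they were 0.0207% for pine needles and 0% for red oak, peat, pine and eucalyptus. At 24 h they were 1.75% for red oak flaming, 0.0692% for peat flaming, 0.00692% for pine needles flaming, 0% for pine flaming and 0.00692% for eucalyptus flaming. The smoldering phases gave 0.00692% for red oak, 0.00692% for peat, 0.0207% for pine needles and 0% for pine and eucalyptus. Since almost no gene was called after most smokes, 0 of 37 members is not set apart from the background there. At an unadjusted p under 0.05, 8 of the 370 member changes passed at 4 h (2.16%) and 25 of 370 at 24 h (6.76%).

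The member changes after single smokes ran between -1.59 and 0.82 on the log2 scale at 4 h and between -1.29 and 1.82 at 24 h. Ifih1, the sensor of long RNA duplexes, had the smallest p at 4 h after 2 flaming smokes. After pine needles flaming it was at 63.1, 14.4, 41, 31.8, 36.5 and 54.3 CPM, against 27, 106.9, 114.2, 114.2 and 99.7 CPM in saline lungs 1 to 4 and 6, and more in the fifth. Apart from the first saline animal the groups were separate, and the log2 change was -1.29 ± 0.51 (edgeR, adjusted p = 0.377). After eucalyptus flaming it was at 33 to 61.8 CPM (log2 change -1.16 ± 0.50, edgeR, adjusted p = 0.474). Fitted on the 4 h lungs alone, both were called, at adjusted p = 0.0142 and 0.0258. For the other 8 smokes at 4 h the smallest adjusted p was 0.939, that of Dtx3l after pine needles smoldering (28.4 to 40.1 CPM, against 18.4 to 30 CPM in saline lungs; log2 change 0.62 ± 0.24). Of these pine needles smoldering lungs 5 were on plate 2 and 1, at 33.9 CPM, was on plate 1 with all 6 saline lungs, so that the ranges compare plates as well.

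At 24 h the smallest adjusted p after a smoke was 0.107, that of Parp14 after red oak flaming. Parp14, a transferase of single ADP-ribose units, was at 420, 409, 309, 307, 1020 and 16200 CPM, against 302, 2490, 685, 797, 552 and 312 CPM in saline lungs. Of these 12 lungs the value of 16200 CPM belongs to the one with the fewest detected genes, and the other 5 red oak flaming lungs lay within the saline range. The log2 change was 1.82 ± 0.61, and without that lung it was -0.72 (adjusted p = 0.771), so that the positive value rests on it. Cmpk2 after pine needles flaming was at 25.8 to 65.6 CPM, against 30.8 to 189 CPM in saline lungs (-0.96 ± 0.42, adjusted p = 0.193). Rtp4, a chaperone of receptor transport, was at 15.7 to 52.9 CPM after red oak smoldering, against 10.1 to 20 CPM in saline lungs (0.89 ± 0.31, adjusted p = 0.361). In 4 of these 6 lungs it was above every saline lung. Zbp1 after eucalyptus flaming was at 76.7 CPM in 1 animal and 4.06 to 11.2 CPM in the other 5, against 3.25 to 12.8 CPM in saline lungs (1.44 ± 0.47, adjusted p = 0.595), and without that animal the log2 change was 0.11 (adjusted p = 0.996).

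Averaged over the 10 smokes, 0 members were called at 4 h (0% of all genes) and 0 at 24 h (0.00692%), and 0 in the difference of this mean effect between times (0%). The log2 changes ran between -0.72 and 0.31 at 4 h, and 95% intervals reached from -1.63 to 1.06, with 25 of 37 intervals inside a 2-fold change either way. At 24 h they ran between -0.22 and 1.16, intervals reached from -1.02 to 2.45, and 23 of 37 were inside. The members with the smallest p were Ifih1 at 4 h (-0.72, interval -1.40 to -0.03, adjusted p = 0.907) and Rtp4 at 24 h (0.62, interval 0.13 to 1.11, adjusted p = 1). At 4 h 9 members were above 0 and 28 below, with a median of -0.15, and at 24 h 33 were above and 4 below, with a median of 0.22; each set of 10 smokes shares 6 saline lungs. All genes had medians of -0.03 and 0.00. With DESeq2's size factors 7 were above 0 at 4 h and 34 at 24 h.

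Oasl2 and Isg15 are given as single genes over the 60 smoke lungs per time. Oasl2 ran between 46.5 and 189 CPM in smoke lungs at 4 h (median 85.6), with 2 of 60 above the highest saline lung, and between 38.9 and 224 CPM at 24 h (median 92.2), with 9 of 60 above. Isg15 ran between 9.17 and 124.1 CPM at 4 h (median 38.2, 3 of 60 above) and between 0 and 132.4 CPM at 24 h (median 33.2, 18 of 60 above). Even the highest of these Oasl2 and Isg15 values were below every LPS lung, which did not hold for every member. Among red oak flaming lungs at 24 h, Parp14 reached 16200, Eif2ak2 541 and Cmpk2 443 CPM. The lowest LPS lungs at 24 h were at 3680, 486 and 352 CPM for these genes. The mean of log2(CPM + 1) over the 37 genes was above every saline lung in 1 of 60 smoke lungs and below every saline lung in 12 at 4 h, and above in 16 and below in 4 at 24 h. These counts are a description, since the mean smoke effect was not called for any member.

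Flaming and smoldering phases were compared as means of 5 smokes each. At 4 h 0 members were called, while 2.39% of all genes were, and at 24 h 0 members against 0.111%. Parp14 had the smallest p at 4 h, 0.69 ± 0.27 on the log2 scale for flaming minus smoldering (adjusted p = 0.142). It was called without the libraries of few detected genes (0.62, adjusted p = 0.0323) and on the 4 h lungs alone (0.66, adjusted p = 0.0201). At 24 h the smallest p was that of Oasl1 (-0.51, adjusted p = 0.907).

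**Figure D3:**
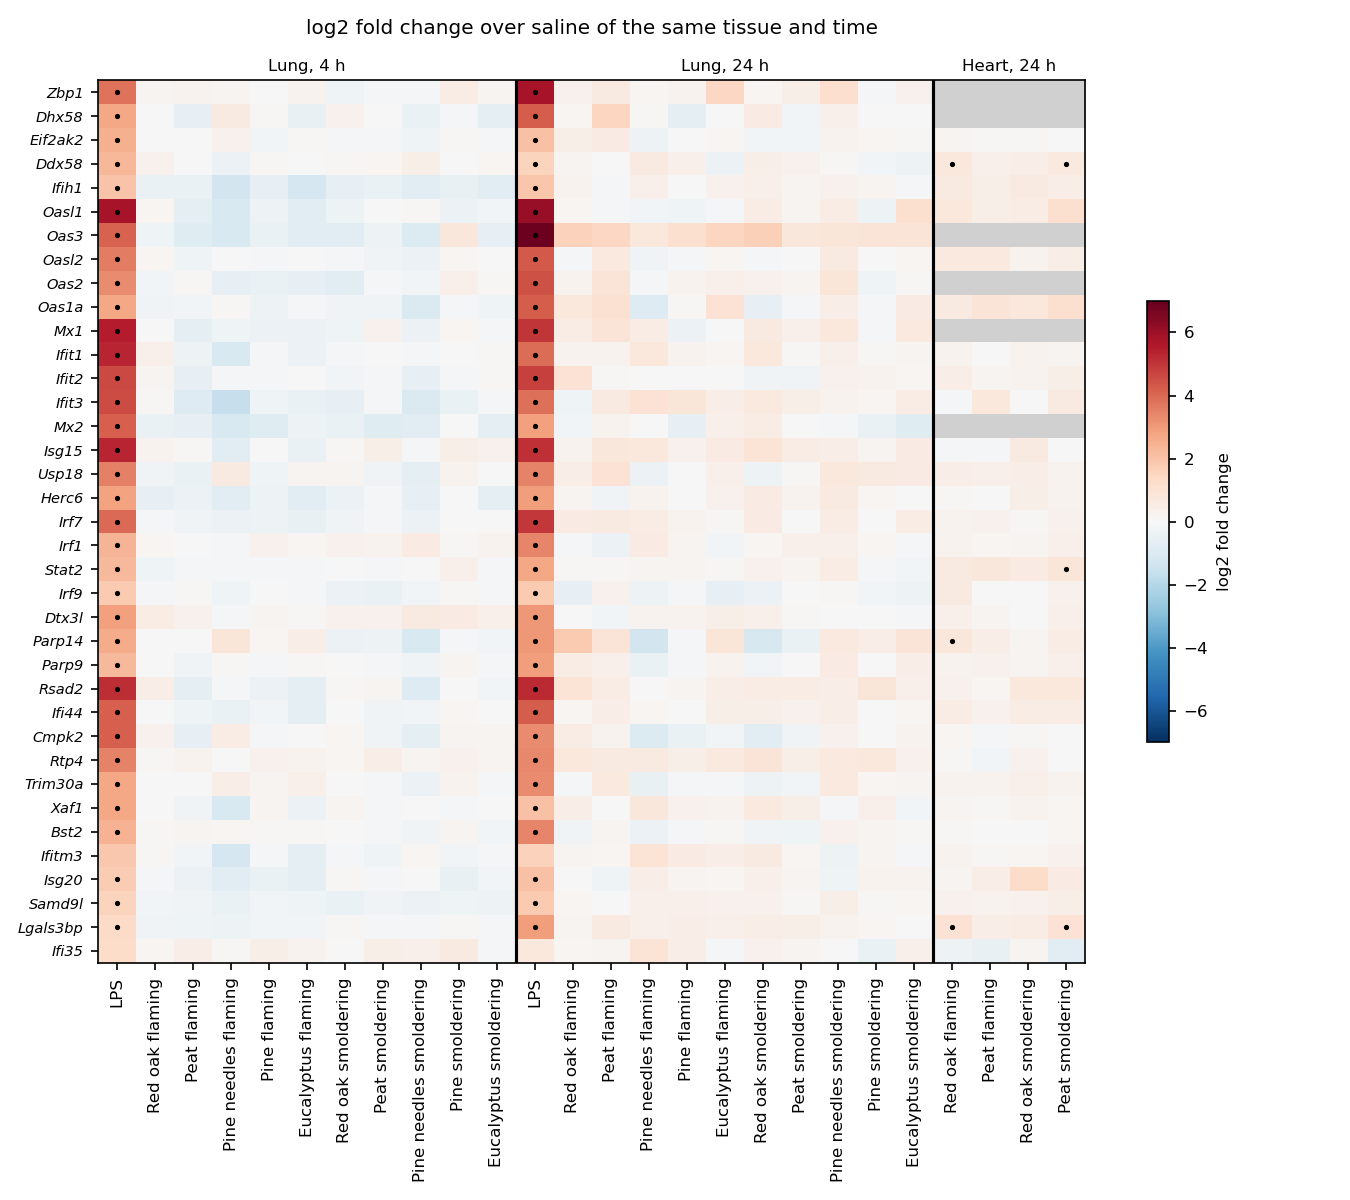
Log2 change of each of the 37 genes (rows, by role) in each comparison with saline (columns: LPS and 10 smokes in lung at each time, 4 smokes in heart), by colour on 1 scale; dots mark called changes and grey cells were not tested. The 2 LPS columns carry 35 dots each, the 20 lung smoke columns none, and the heart columns 3 each for red oak flaming and peat smoldering.

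A few single smoke lungs were high for many members at once. The pine smoldering, eucalyptus flaming and peat flaming lungs named below had the highest means over these same 37 genes among smoke lungs of their time. Counts of members highest in them follow in part from that, so they describe these lungs and add no support. The fourth pine smoldering lung at 4 h had a mean log2(CPM + 1) of 5.74 over the 37 genes, against 4.47 to 5.35 in saline lungs. It held the highest value of the 66 lungs without LPS for 19 of the 37 members, and for 2.04% of all genes. In it Isg15 was at 124.1, Oasl2 at 189, Ifit1 at 73.9, Mx1 at 19.5 and Irf7 at 28.2 CPM. Its neutrophil markers summed to 411 CPM, above the 126.4 to 305 CPM of saline lungs, and its recruited monocyte markers to 987 CPM, within the saline range.

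At 24 h 2 further lungs behaved like this. The third eucalyptus flaming lung had a mean of 5.48 over the 37 genes, against 4.07 to 4.77 in saline lungs, and the highest value for 11 members (1.2% of all genes). Its Oasl2 was at 224 and its Isg15 at 102.9 CPM, and its neutrophil and monocyte markers summed to 371 and 2530 CPM, above every saline lung of that time. The sixth peat flaming lung had a mean of 5.46 and the highest value for 7 members (0.581% of all genes), with Isg15 at 132.4, Ifit1 at 82.1, Mx1 at 18.9 and Irf7 at 25 CPM. Its neutrophil markers summed to 195.5 CPM, just above the saline maximum of 187.6 CPM. Red oak flaming replicate 6 had a mean of only 3.10 and yet the highest value for 8 members, but 15.6% of all genes were highest in that library. The part of these marker levels in the members' values was not tested.

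In the heart the members were measured after 4 smokes at 24 h, and the changes were small. After red oak flaming 3 of 31 members were called higher, when 5.33% of all genes were, and after peat smoldering 3, when 2.39% were. The red oak flaming count is near its share over all genes and is not set apart from the background. Leaving out 1 replicate at a time gave 3 to 6 after red oak flaming and 1 to 3 after peat smoldering. The called genes below are described as single genes. After peat flaming 0 were called (0.0358% of all genes) and after red oak smoldering 0 (0%). The mean of the 4 smokes gave 3 (1.4%) and flaming against smoldering 0 (0.0179%). No member was called lower in any of these.

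Lgals3bp was called after both smokes. It was at 14.1, 14.1, 9.24, 19.3, 11.7 and 8.18 CPM in red oak flaming hearts and at 14, 12.3, 8.93, 13.9, 14.4 and 15.5 CPM in peat smoldering hearts, against 6.42, 10.9, 4.98, 4.79, 5.98 and 5.54 CPM in saline hearts. Except for the second saline heart, every saline value lay below both smoke groups. The log2 changes were 0.99 ± 0.23 (adjusted p = 0.00682) and 1.03 ± 0.23 (adjusted p = 0.0119).

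Ddx58 was at 10.7, 14, 6.73, 11.4, 13.8 and 11 CPM in red oak flaming hearts and at 12.1, 8.36, 7.75, 11.3, 13.8 and 12.5 CPM in peat smoldering hearts, against 5.88, 7.68, 6.54, 5.09, 7.44 and 7.76 CPM in saline hearts. In 5 of 6 hearts of each smoke group it was above all saline hearts. The log2 changes were 0.74 ± 0.18 (adjusted p = 0.00936) and 0.71 ± 0.18 (adjusted p = 0.028). The peat smoldering call was lost without any 1 of 6 hearts, namely saline 1 or 4 and peat smoldering 1, 4, 5 or 6.

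Stat2 was called after peat smoldering, at 6.65, 5.48, 7.07, 7.15, 11.6 and 8.18 CPM, against 3.39, 3.27, 4.51, 4.79, 3.88 and 6.09 CPM in saline hearts (log2 change 0.83 ± 0.22, adjusted p = 0.0307). The call was lost without saline 1, 2 or 4 or peat smoldering 3, 4, 5 or 6. After red oak flaming Stat2 was at 3.7 to 9.51 CPM and just missed the threshold (log2 change 0.65 ± 0.22, edgeR adjusted p = 0.0501). Its log2 changes after peat flaming (0.79 ± 0.22) and red oak smoldering (0.55 ± 0.22) were not called either. Parp14 was called after red oak flaming, at 45.2, 72.3, 42.1, 50.3, 39.5 and 44.5 CPM, against 25, 22.1, 34.9, 23.8, 28.6 and 34.4 CPM in saline hearts. All 6 were above every saline heart, and the log2 change was 0.80 ± 0.20 (adjusted p = 0.00986). A difference between these smokes for any of the 4 genes was not tested.

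**Figure D4:**
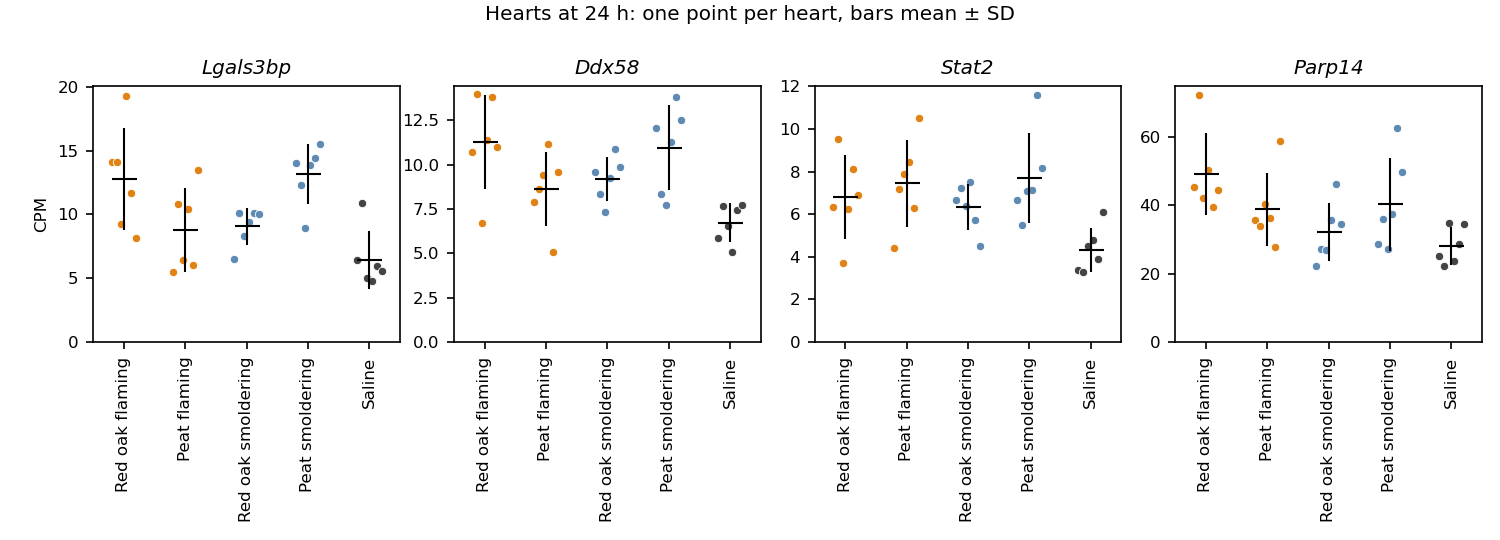
CPM of Lgals3bp, Ddx58, Stat2 and Parp14 in each of 6 hearts per group (points) at 24 h after red oak flaming, peat flaming, red oak smoldering, peat smoldering or saline, with mean ± SD. Saline hearts run from 4.79 to 10.9 CPM for Lgals3bp and from 22.1 to 34.9 CPM for Parp14, whose red oak flaming hearts all lie at 39.5 CPM or higher.

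Over the mean of the 4 smokes Lgals3bp (0.74 ± 0.19, adjusted p = 0.0387), Stat2 (0.71 ± 0.18, adjusted p = 0.0398) and Ddx58 (0.57 ± 0.15, adjusted p = 0.0441) were called. Without the low-count filter Stat2 (adjusted p = 0.0538) and Ddx58 (adjusted p = 0.0632) were not. Of the 24 smoke hearts 20 were above every saline heart for Ddx58, 19 for Stat2, 16 for Parp14 and 10 for Lgals3bp. These genes were picked because they were called in the same hearts, so these counts describe the calls and add no support. No share over all genes is set beside them. The members with the smallest p in the other comparisons were Stat2 after peat flaming (0.79, adjusted p = 0.223), Ifih1 after red oak smoldering (0.66, adjusted p = 0.664) and Herc6 for flaming minus smoldering (-0.33, adjusted p = 0.223). Nearly all log2 changes were above 0, in 28 of 31 members after red oak flaming, 24 after peat flaming, 31 after red oak smoldering and 29 after peat smoldering, with medians of 0.27, 0.22, 0.26 and 0.36. Medians over all genes were between 0.00 and 0.03, and these 4 comparisons share their 6 saline hearts, so they do not count as 4 separate results. In the heart 95% intervals of the mean smoke effect reached from -0.93 to 1.84, and 23 of 31 lay within a 2-fold change either way.

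Some cell type markers were also called after red oak flaming and peat smoldering, and no relation between markers and members was computed. Endothelial markers summed to 493 to 575 CPM in red oak flaming hearts, 351 to 540 in peat flaming, 312 to 553 in red oak smoldering and 435 to 528 in peat smoldering hearts, against 280 to 380 CPM in saline hearts. After red oak flaming 5 of 7 endothelial markers were called higher, Kdr, Tek, Tie1 and Pecam1 among them, and after peat smoldering Kdr and Cdh5. Recruited monocyte markers summed to 110.9 to 192.9 CPM after red oak flaming and 110.6 to 186.5 CPM after peat smoldering, against 68.2 to 155.2 CPM in saline hearts, with Vcan called of 5 tested. Cardiac muscle markers summed to 32600 to 42700 CPM after red oak flaming and 39600 to 45500 CPM after peat smoldering, against 44900 to 53500 CPM in saline hearts, and Myl2 was called lower in both. Their part in the members' changes was not tested. Among other pathway genes Tlr3 was called higher after both smokes (0.45 and 0.40), Tlr7 (0.87) and Irf2 (0.40) after red oak flaming, and Ifngr2 lower after red oak flaming (-0.53, adjusted p = 0.0134).

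Most members were lower in the heart than in the lung of the same saline animals at 24 h. The fit did not pair heart and lung by animal, and the fit with the animal as a block is given with the other settings. Of 32 members tested 21 were lower (41.7% of all genes) and 1 higher (34.8%), with a median log2 difference of -1.55 against -0.19 over all genes. Oas1a averaged 0.71 ± 0.50 CPM in hearts and 17.5 ± 11.4 CPM in lungs (SD, n = 6 each in this fit; log2 difference -4.56 ± 0.53, edgeR adjusted p = 2e-06). Parp14 averaged 33.6 ± 6.51 CPM in hearts and 647 ± 618 CPM in lungs, and Usp18 5.72 ± 2.98 and 82.6 ± 42.8 CPM. Oasl2 averaged 14 ± 4.36 CPM in hearts and 71.6 ± 20.1 CPM in lungs (-2.35 ± 0.26, edgeR adjusted p = 1.21e-06). Trim30a (-3.02) and Ifih1 (-2.18) were also among those lower. Mx1 and Zbp1 are counted among the 21, but were too low in hearts for the heart comparisons and entered this one through their lung counts, which favoured a lower call.

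Dtx3l was the member called higher in the heart, at 31.1 ± 5.73 CPM in hearts and 16.1 ± 4.61 CPM in lungs (0.95, edgeR adjusted p = 0.00153; SD, n = 6 each). Isg15 was at 20.1 to 58.6 CPM in hearts and 8.47 to 31.1 CPM in lungs, and was not called (0.69, adjusted p = 0.0821). Rsad2, Rtp4, Ifit1, Ifit2, Irf7, Ifi44, Ifitm3, Xaf1 and Ifi35 were not called either. Dhx58, Zbp1, Oas2, Oas3, Mx1 and Mx2 were too low in hearts to enter the comparison of heart groups, with Oas3 at most 0.494 and Dhx58 at most 0.178 CPM in any of 30 hearts.

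Oasl2 was chosen to ask whether animals high in lung were high in heart. In red oak flaming animals it was at 38.9 to 125.2 CPM in lung and 11.2 to 34.1 CPM in heart, in peat flaming animals at 79 to 196 and 11.1 to 25 CPM, and in saline animals at 71.3 to 142 and 7.1 to 15.9 CPM. With group means removed on the log2(CPM + 1) scale, the 30 animals gave Pearson's r = 0.561 (p = 0.00546) and Spearman's rho = 0.505 (p = 0.00995), by a two-sided permutation test of 100000 resamples within groups. This was the only relation of its kind computed. Without the 2 animals farthest from the median in lung, r was 0.397 (permutation p = 0.0663) and rho 0.353 (permutation p = 0.0992) over 28 animals. The coefficients were lower without those animals and no longer passed. Lung and heart of an animal share its handling, and this was not tested.

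**Figure D5:**
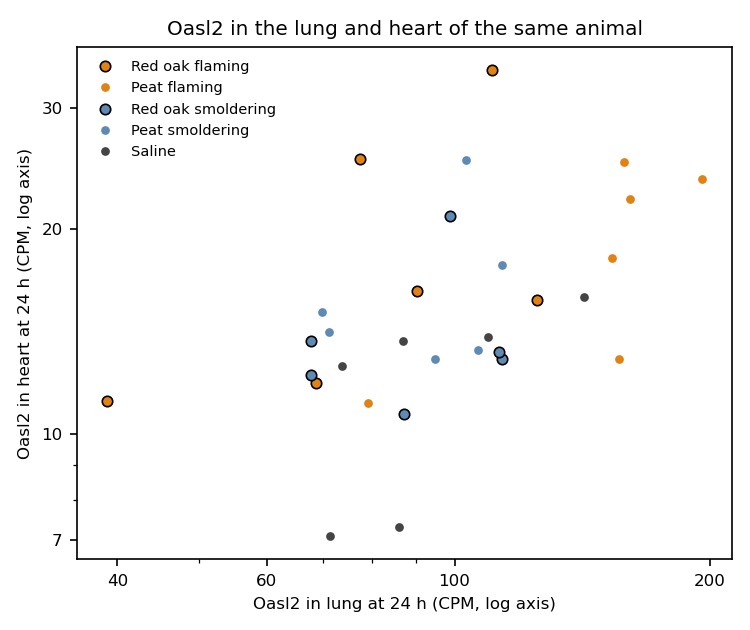
Oasl2 in the lung (horizontal axis, CPM, log scale) and in the heart (vertical axis, CPM, log scale) of the same 30 animals at 24 h, each point 1 animal, by group. Points rise loosely together, the highest heart value, 34.1 CPM, being that of a red oak flaming animal with 110.8 CPM in lung.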

How the data were processed

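Gene expression was measured with TempO-Seq, a probe-based targeted assay, per the labels, which also name a QuantSeq 3' kit, so the chemistry is stated in both ways. The deposited values are whole-number counts per probe row made by the authors, 30146 rows for 170 libraries. Bowtie and DESeq2 are named, without versions, in the submitters' processing notes; the genome build is not given in the sources used here. Library totals limit precision at low levels. Each edgeR p-value sets a difference between groups against the spread between animals, estimated over all groups of the fit.

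Rows were summed per symbol. Tests used edgeR 4.0.16 with limma 3.58.1 in R 4.3.3 (TMM, filterByExpr, robust quasi-likelihood fit): 140 lung libraries with group and plate terms, 30 hearts with group terms, and 6 hearts with 6 lungs of saline animals. Benjamini-Hochberg adjustment ran over all genes tested, and the threshold was 0.05. Animal numbers in the titles pair hearts with lungs, so the fit with the animal as a block was an alternative. Other alternatives were DESeq2 1.42.0, its size factors in edgeR, no filter, no plate term, each time alone, plate 1 at 4 h with plate 2 at 24 h, leaving out lungs of under 13000 detected genes, single probes, and each replicate left out. The fit was tested on simulated data.

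The 37 members and all lists were chosen with earlier results of these data known. Named are 12 fixed genes in 4 h LPS lungs, up to 8 called members elsewhere by size, and otherwise the member of smallest p. Zbp1, Rtp4, Mx1, Isg15, Oasl2, Parp14, Eif2ak2 and Cmpk2 in smoke lungs were partly chosen after their values were seen. So were Oas1a, Bst2, Irf1, Zbp1, Ifit1, Ifih1 and Ddx58 between times. One other pathway gene is not reported here.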

Additional observations from a re-analysis of the deposited data

Results flagged for a closer look

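In 97 sets of values, each 1 gene or the mean of the 37 genes in a group of 4 or 6 animals, the highest or lowest animal was tested for its gap to the others, by Dixon's criterion at 95%, and 8 sets had an animal that stood apart; chance gives about 1 in 20 sets. The mean log2(CPM + 1) over the 37 genes stood apart in 2 lungs at 24 h, pine smoldering replicate 4 at 3.549 and red oak flaming replicate 6 at 3.098, which are both among the 6 lungs of few detected genes. In saline lungs at 4 h Irf1 stood apart at 216 CPM in replicate 6 and Usp18 at 171.7 CPM in replicate 1. Usp18 also stood apart at 24 h, at 216 CPM in saline lung replicate 2. Lgals3bp stood apart in saline replicate 1 of 24 h lung at 58.5 CPM and in saline heart replicate 2 at 10.9 CPM. Parp14 stood apart at 72.3 CPM in red oak flaming heart replicate 2.

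The effect of LPS on Lgals3bp differed between the times by an interaction test, 1.571 greater at 24 h than at 4 h on the log2 scale (edgeR, adjusted p = 0.0109), and all 4 LPS lungs of 24 h were above all 4 of 4 h.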

How the results depend on the processing

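Across settings the LPS counts were 35 to 37 members at 4 h and 31 to 36 at 24 h. No called result turned its sign; Parp14 after red oak flaming at 24 h, not called, was 1.82 and ran from -0.72 (without replicate 6) to 2.47 on leaving out 1 replicate, and was -0.77 without the lungs of few detected genes. The counts of called members that moved were these. Each time fitted alone, and 1 plate per time, gave 1 after pine needles flaming and 1 after eucalyptus flaming at 4 h, Ifih1 in each (lower), and 1 for flaming minus smoldering at 4 h, Parp14, as did leaving out lungs of few detected genes. That last step also gave 1 at 24 h after pine needles flaming, Parp14 (-1.37, adjusted p = 0.0364). DESeq2's size factors gave 1 after red oak flaming at 24 h, Parp14 (2.15, adjusted p = 0.0119), and 0 for the change of the LPS effect with time. DESeq2's own test gave 3 after red oak flaming at 24 h, adding Eif2ak2 and Ifit2, and 6 in red oak flaming hearts, adding Ifih1, Oasl2 and Stat2. In red oak flaming lungs at 24 h Ifit2 had a median of 31.5 and a maximum of 461 CPM. Eif2ak2 had a median of 146.5 and a maximum of 541 CPM there. No share over all genes is set beside the counts under other settings. Without the filter the mean smoke in heart gave 1. The cause of these moves was not tested. Leaving out 1 replicate at a time gave 34 to 35 for LPS at each time, 0 to 1 for red oak flaming lung at 24 h (1 without saline 2 or red oak flaming 2, 3 or 4), 3 to 6 for red oak flaming heart, 1 to 3 for peat smoldering heart and 19 to 23 for heart minus lung, and 0 to 0 for every other single smoke. With the animal as a replicate block, heart minus lung gave 20 lower members against 21 without, and no other call rests on a pairing. One plate per time gave no mean smoke value at 24 h, since pine needles smoldering had 0 lungs on plate 2 then. Among single named members 13 calls were lost and 15 gained under other settings, and 26 were lost and 4 gained on leaving out a replicate, Dhx58 at 4 h among them (adjusted p up to 0.122). Another scaling moved the median of all genes by over 0.1 for pine needles flaming at 4 h (-0.12) and, at 24 h, for red oak smoldering (0.15), red oak flaming (0.11) and pine needles flaming (0.18), and for the LPS time effect (-0.11).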
